A study of Mus musculus with 6 samples.

Results

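Heat shock proteins and DnaJ proteins are the core of the cell's protein folding machinery. The genes described here are the protein-coding rows of the count table whose name begins with Hsp or Dnaj, apart from Hspg2, which encodes the matrix proteoglycan perlecan and shares only the letters. The rule gave 74 genes of 54532 listed, 29 of them Hsp-named and 45 Dnaj-named. RNA-seq was made of eWAT, the white fat pad at the epididymis, from 3 mice with cachexia and 3 control mice. All 6 were C57BL/6 mice, male per the study's methods. For age, the methods give a range of weeks for the mice of the whole study, and the labels give none for these 6. The 3 cachexia mice carried a subcutaneous tumor grown from LLC (Lewis lung carcinoma) cells, which come from a lung tumor of this strain, and had no other treatment in the labels. The 3 control mice are labelled only as control, and what they received in place of tumor cells is not given in the sources used here. Replicate numbers name different mice, so n = 3 mice per group throughout. The comparison asks how expression of the chaperones differed in wasting fat.

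Chaperones of the HSP70 family bind exposed hydrophobic stretches of unfolded proteins in cycles of ATP binding and hydrolysis. DnaJ proteins (J proteins, or HSP40) bring clients to HSP70 and start hydrolysis, nucleotide exchange factors such as the HSP110 proteins reset the cycle, and HSP90 acts on clients that are nearly folded. Small heat shock proteins hold unfolding proteins without ATP. The endoplasmic reticulum (ER) and the mitochondrion each have an HSP70 of their own, with their own J proteins. Heat and other protein-damaging stress raise the cytosolic set through heat shock factor HSF1, and unfolded protein in the ER raises the ER set through the unfolded protein response.

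The total count per mouse was between 14928766 and 18855546, and each cachectic mouse had fewer counts than each control mouse. Levels are given as CPM, counts scaled to the TMM-normalized library size, and a fold change is that of cachectic over control mice on the log2 scale, with its SE. A gene was called when its edgeR adjusted p was below 0.05, adjusted over all 16003 genes tested. By a measure chosen after the values were seen, control replicate 1 stood far apart, and cachexia replicate 3 only slightly. Control replicate 1 had 664 genes above 1 CPM at over 5 times the level of every other mouse, while the other 5 mice had between 3 and 26 such genes. The genes high in control replicate 1 included epithelial and male germ cell transcripts. A list of 10 duct and ciliated epithelium genes summed to 389, 21.7 and 12.5 CPM in the controls, given as replicates 1, 2 and 3, and 29, 13.7 and 35.8 CPM in the cachectic mice. A list of 12 male germ cell genes summed to 62.6, 2.86 and 2.32 CPM in the controls and 4.72, 1.66 and 3.47 CPM in the cachectic mice. Cachexia replicate 3 had the second most such genes, 26, Hspa1a among them, against 10 in cachexia replicate 2. Both lists were written after these values were seen.

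Few of the chaperone genes passed the test. Of the 74, 67 had enough counts to be tested, 4 were called higher in cachexia (Dnajc7, Dnajb2, Dnajb6 and Dnajc28), 5 were called lower (Dnaja1, Hspa12a, Hspa14, Hspa4 and Hspa13), and 58 passed in neither direction. The share called higher was 5.97%, against 9% of all genes tested, and the share called lower was 7.46%, against 8.63% of all genes tested. The median change of the tested members was -0.025, with 33 positive and 34 negative values between -1.78 and 1.77. The CPM of the 3 cachectic mice lay all above or all below the 3 controls in 23 of the 67 members (34.3%), against 40.5% of all genes tested. Of the 40 Dnaj-named genes tested, 4 were called higher (10%, against 9% of all genes tested) and 1 lower (2.5%, against 8.63%). Of the 27 Hsp-named genes tested, 0 were called higher and 4 lower (14.8%, against 8.63%). This is whole tissue, where fewer cells of a type and less RNA per cell cannot be told apart.

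By location, the cytosol and nucleus held 44 members, 38 of them tested, with 3 called higher, 3 called lower and a median change of 0.019. The ER held 13, all tested, with none called higher, 1 called lower and a median of -0.17. The mitochondrion held 8, all tested, with no call in either direction and a median of 0.18. The other 9, which the assignment by hand placed in none of these, had 8 tested, 1 higher (Dnajc28) and 1 lower (Hspa12a). The counts by location depend on this assignment, which was not checked against a catalogue of protein locations. For the 58 members without a call, the 95% interval of the log2 change lay within 1 on either side of 0 in 43, so that a change by a factor above 2 lies outside the interval of each. For the other 15 the interval reached beyond 1.

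**Figure D1:**
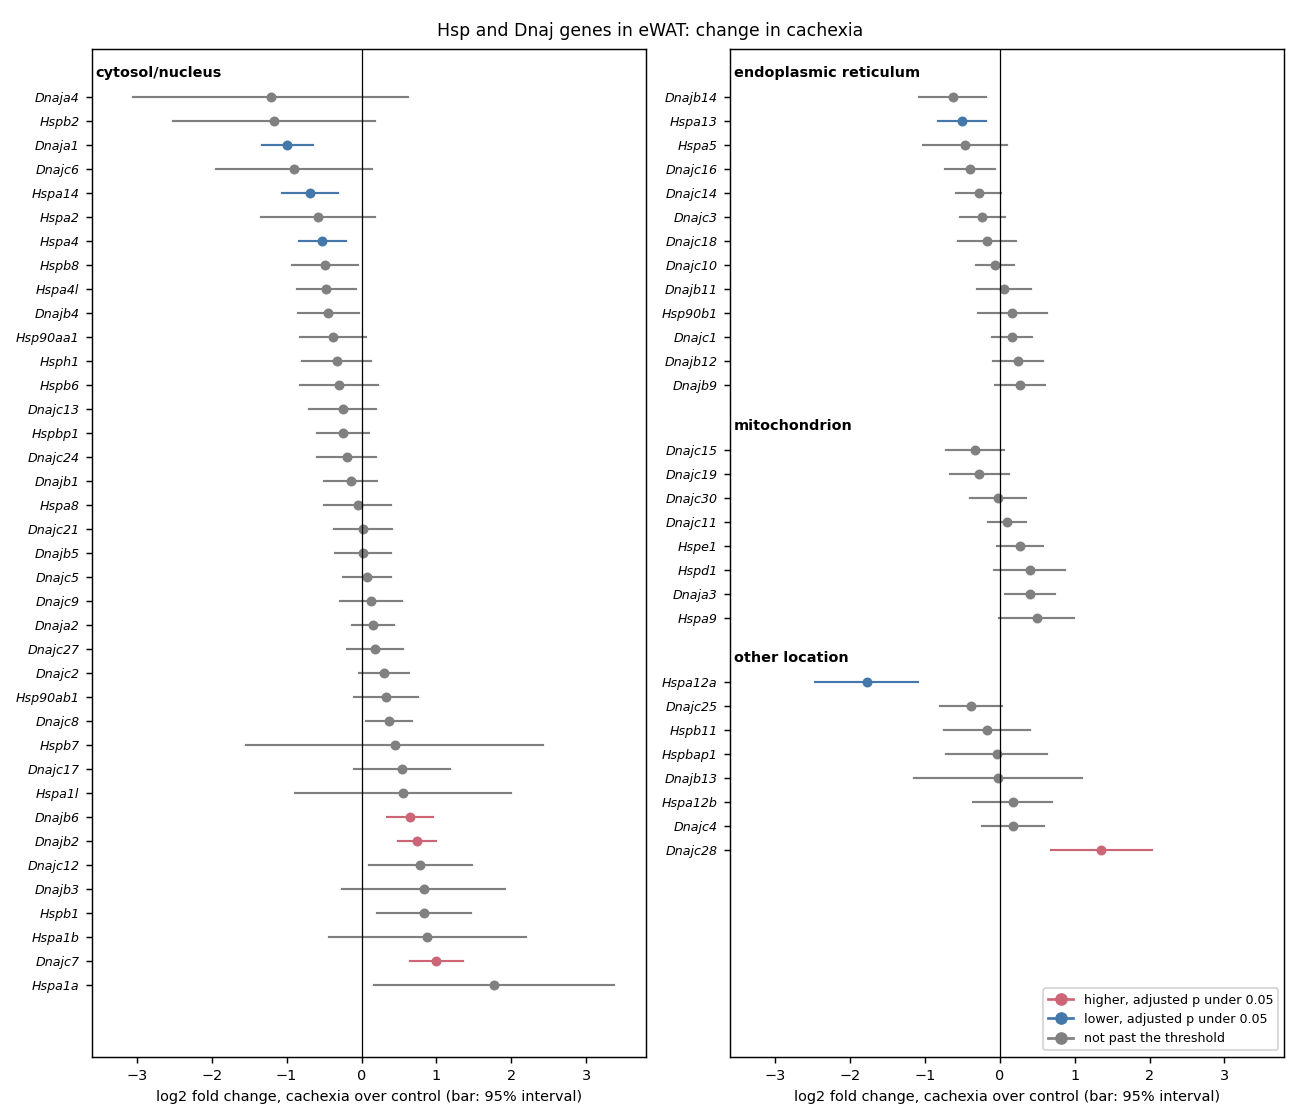
Log2 fold change of cachectic over control mice for the 67 tested members, grouped by location, with each gene's 95% interval as a bar (3 mice per group, edgeR). The 4 genes called higher and the 5 called lower are colored. The bars of Hspa1a, Hspb7 and Dnaja4 are among the widest.

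Stress is known to act on chaperone genes through short elements near their start sites. The sites found in genes that the results on the heat shock and ER chaperones turn on are printed here, each with a few bases on either side. The heat shock element (HSE) is a run of alternating GAA and TTC units, searched as GAANNTTCNNGAA or TTCNNGAANNTTC. The ER stress response element (ERSE) joins a CCAAT box and a CCACG box across a fixed gap. RefSeq windows of 250 bases before to 50 after a start site (GRCm38.p6) were found for 60 of the 74 members, and both strands were searched. An HSE was found in 4 of the 60 members (Hspd1, Hspe1, Dnajb6 and Hsph1), against 0.662% of 27025 genes with a window. An ERSE was found in 3 of the 60 (Hspa5, Hsp90b1 and Dnajc3), against 0.137% of those genes. A match is a stretch of letters and does not show that a factor binds there, and no change in RNA was read from it.
Hspa5, ERSE in capitals, chr2:34772020-34772048, plus strand: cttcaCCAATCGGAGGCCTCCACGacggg
Dnajc3, ERSE in capitals, chr14:118937822-118937850, plus strand: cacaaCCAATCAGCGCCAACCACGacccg
Hsp90b1, both ERSE in capitals, chr10:86705510-86705694, minus strand: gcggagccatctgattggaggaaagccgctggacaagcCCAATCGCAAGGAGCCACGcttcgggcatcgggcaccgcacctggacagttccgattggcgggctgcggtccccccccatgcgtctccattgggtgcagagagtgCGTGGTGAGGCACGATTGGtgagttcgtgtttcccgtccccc
Hspe1 and Hspd1, overlapping HSE in capitals, chr1:55088053-55088082, plus strand: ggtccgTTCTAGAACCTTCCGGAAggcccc
Dnajb6, HSE in capitals, chr5:29735844-29735872, plus strand: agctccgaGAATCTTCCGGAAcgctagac
Hspa1a, 2 units in capitals, chr17:34972242-34972271, minus strand: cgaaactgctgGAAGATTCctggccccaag

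In the GENCODE M21 annotation the sites of Dnajc3, Hsp90b1 and Hspa1a lie in no annotated untranslated region. Those of Hspa5, Dnajb6 and the pair Hspe1 and Hspd1 overlap such a region. The strand of these regions was not considered, and other exons were not searched. The ERSE of Hspa5 began 65 bases before its start site and that of Dnajc3 105 bases before. Hsp90b1 had one at 212 bases and another at 107 bases before its start, the latter on the opposite strand. Hspd1 and Hspe1 lie head to head, and the same pair of overlapping elements stood 89 bases before the start of Hspe1 and 144 bases before a start of Hspd1. The element of Dnajb6 stood 46 bases before one start and 127 bases before another. In Hsph1 the element lay after the start site. Hspa1a held no run of 3 exact units in its window and has a pair of units, GAANNTTC, 104 bases before its start. Runs with inexact units were not searched in any gene. A pair of units (GAANNTTC or TTCNNGAA) was present in 16 of the 60 members and in 17.0% of all genes, and each HSE holds such pairs. The 250 bases before Hspa1a and those before Hspa1b differ at 3 positions.

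Levels were compared between genes per length, as FPKM. The constitutive HSP70 gene Hspa8 and the constitutive HSP90 gene Hsp90ab1 had the highest FPKM, with means over the 6 mice of 345 and 341. The mitochondrial HSP70 gene Hspa9 followed at 154, then the small heat shock protein gene Hspb1 at 146 and the mitochondrial chaperonin gene Hspd1 at 130.4. These 5 genes made up between 46.8% and 60.4% of the summed FPKM of all members in a mouse. The sum over all members was 2006, 2194 and 1976 FPKM in the control mice and 2047, 2284 and 2340 FPKM in the cachectic mice, so the groups overlapped. The cytosolic sum was 1267, 1357 and 1187 FPKM in the controls and 1195, 1442 and 1513 FPKM in cachexia, again overlapping. The ER sum was 361, 349 and 352 FPKM in the controls and 292, 286 and 379 FPKM in cachexia, lower in 2 cachectic mice than in any control and highest of all in cachexia replicate 3. Much of this sum was 1 gene, Hspa5, with 139, 120 and 124 FPKM in the controls and 76.5, 71.3 and 127 FPKM in cachexia. The low ER sums of cachexia replicates 1 and 2 thus lie largely in that gene. The mitochondrial sum ran the other way, at 296, 401 and 346 FPKM in the controls and 467, 494 and 377 FPKM in cachexia, where replicates 1 and 2 lay above all controls and replicate 3 lay among them. Summed as CPM, the ER members stood at 1644, 1625 and 1641 in the controls and 1335, 1318 and 1705 in cachexia, and the mitochondrial members at 958, 1292 and 1136 and 1542, 1625 and 1212, with the same mice outside the control range.

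**Figure D2:**
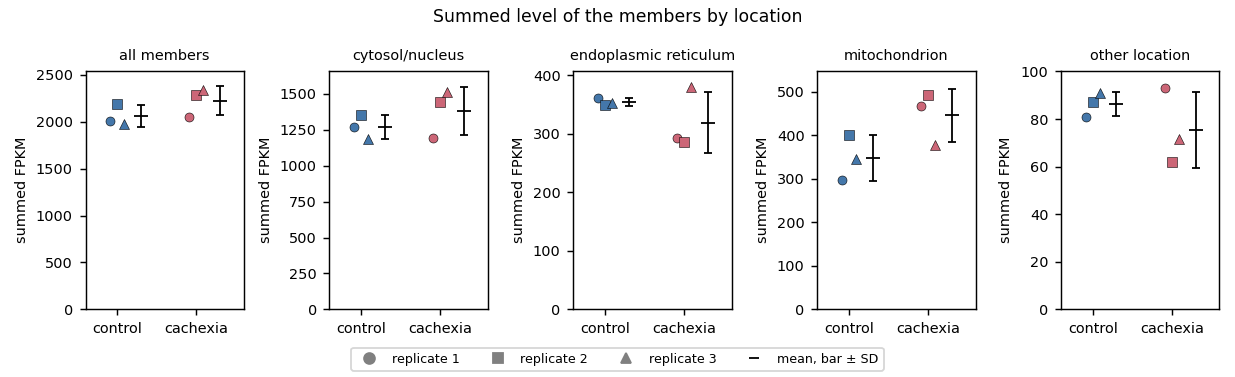
Summed FPKM of the members in each mouse, for all 74 genes and by location, with points for the 3 mice of each group and the mean ± SD beside them. ER sums of cachexia replicates 1 and 2 lie below the controls and that of replicate 3 above them, while the mitochondrial sums of replicates 1 and 2 lie above the controls.

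Of 11 cytosolic and mitochondrial members that textbooks tie to the heat shock response, the constitutively expressed Hspa8 and Hsp90ab1 among them, none was called higher and 1, Dnaja1, was called lower, and their median change was 0.27. Hspa8, the household HSP70, had 1394, 1723 and 1476 CPM in the controls (replicates 1, 2 and 3 in this order, as throughout) and 1352, 1664 and 1431 CPM in cachexia. Its groups overlapped, with a change of -0.049 ± 0.193 (SE, edgeR adjusted p = 0.884) and a 95% interval of -0.50 to 0.40. Hsp90ab1 had 887, 1055 and 827 CPM in the controls and 1056, 1265 and 1153 CPM in cachexia. Each cachectic mouse lay above each control, replicate 1 only just, by a change of 0.33 ± 0.185 that did not pass (adjusted p = 0.253). As FPKM, Hsp90ab1 overlapped between the groups, at 345.7 in cachexia replicate 1 and 346.9 in control replicate 2. Its inducible partner Hsp90aa1 had 347, 354 and 275 CPM in the controls and 236, 211 and 304 CPM in cachexia, a change of -0.38 ± 0.189 (adjusted p = 0.200) with overlapping groups. Dnajb1, the J protein most closely tied to the heat shock response, had 49.8, 40.1 and 49 CPM in the controls and 37.8, 38.9 and 49.01 CPM in cachexia, with a change of -0.15 ± 0.154 (adjusted p = 0.544).

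The strongly inducible HSP70 genes Hspa1a and Hspa1b were high in 1 mouse. Hspa1a had 10.5, 15.8 and 12.8 CPM in the controls and 15.3, 17.4 and 101 CPM in cachexia. Hspa1b had 26.6, 34.2 and 37.4 CPM in the controls and 28.8, 26.2 and 126 CPM in cachexia. Only cachexia replicate 3 was far above the controls in either gene. The changes were 1.77 ± 0.692 for Hspa1a (adjusted p = 0.116) and 0.88 ± 0.567 for Hspa1b (adjusted p = 0.313), neither past the threshold. Without cachexia replicate 3 they were 0.33 and -0.25, so Hspa1b changed sign. Of the stretches of 150 bases in the longest Hspa1a transcript, 38.1% also occur in Hspa1b, so the split of reads between both genes is uncertain. With their counts summed the change was 1.19 (adjusted p = 0.211). A list of 10 immediate-early genes, which respond to tissue handling, summed to 2131, 2722 and 1982 CPM in the controls and 2743, 2390 and 1928 CPM in cachexia. Of these 10, 1 was called higher, Atf3, with 13.2, 18.4 and 18.4 CPM in the controls and 38.96, 49.5 and 24.3 CPM in cachexia (adjusted p = 0.0238). The part of tissue handling in the Hspa1a and Hspa1b values was not tested.

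**Figure D3:**
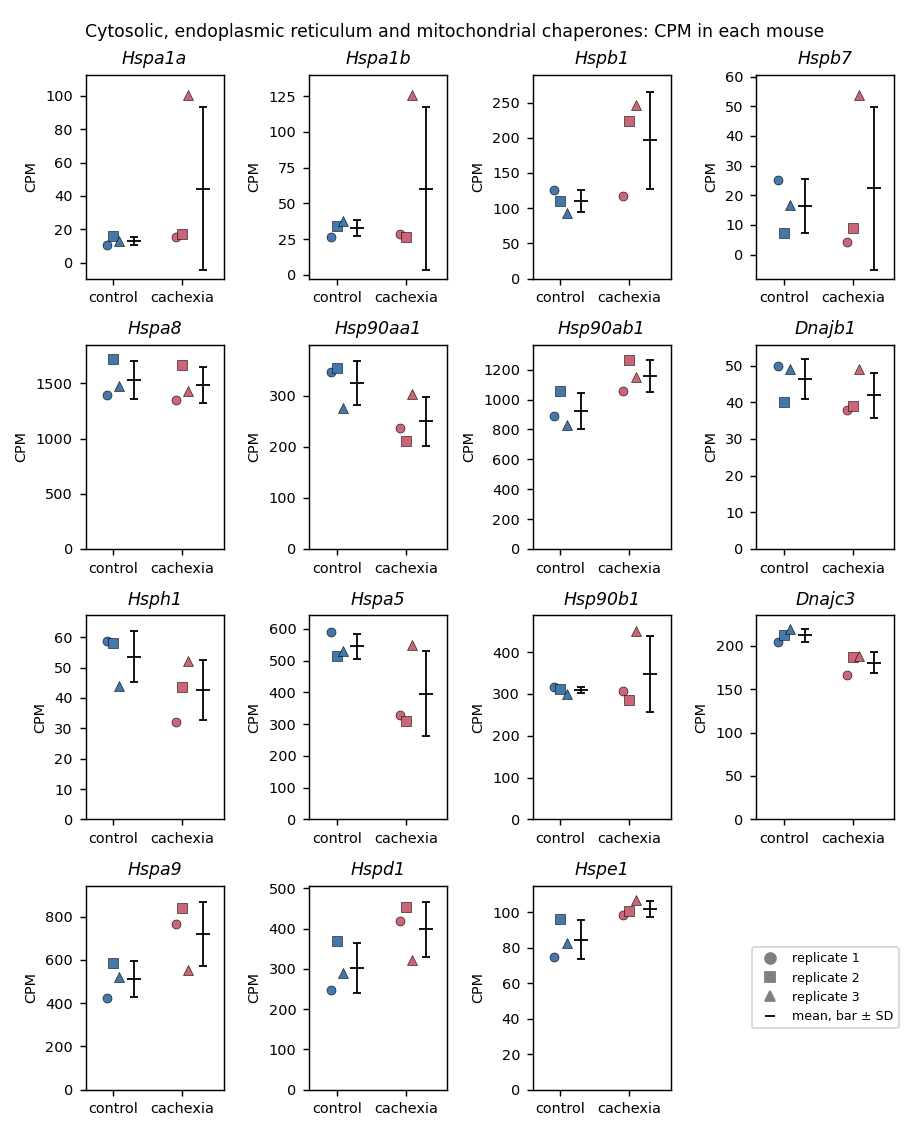
CPM in each of the 6 mice for 15 cytosolic, ER and mitochondrial chaperone genes, with points for the mice and the mean ± SD beside them. Hspa1a, Hspa1b and Hspb7 are high in cachexia replicate 3 alone, at 101, 126 and 53.9 CPM, and Hspa5 is low in cachexia replicates 1 and 2.

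The 3 smallest p-values among the members belonged to cytosolic J proteins, 1 lower and 2 higher. Dnaja1 (chr4:40722150-40737149, with GRCm38 coordinates of the gene as in the files here and for the genes after it), a type A J protein that serves cytosolic HSP70 in folding and in mitochondrial import, had 245, 223 and 239 CPM in the controls and 121, 103 and 133 CPM in cachexia. The groups were far apart, and the change was -0.99 ± 0.146 (edgeR adjusted p = 0.00570). The related Dnaja2, which shares its type and location, had 137, 134 and 143 CPM in the controls and 152, 164 and 144 CPM in cachexia, with a change of 0.15 ± 0.122 that did not pass (adjusted p = 0.429). Dnaja2 and the other members named outside the rule in the methods were chosen after their values were seen.

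Dnajc7 (chr11:100582818-100620168) encodes a J protein with tetratricopeptide repeats that contacts both HSP70 and HSP90. It had 79.1, 72.6 and 82.05 CPM in the controls and 137, 146 and 185 CPM in cachexia, a rise of 1.00 ± 0.153 (adjusted p = 0.00633). Dnajb2 (chr1:75236406-75245692), which has ubiquitin-interacting motifs and directs HSP70 clients to the proteasome, had 45.9, 44.2 and 43.3 CPM in the controls and 70.1, 74.6 and 78.2 CPM in cachexia. Its spread within either group was small, and the rise was 0.74 ± 0.111 (adjusted p = 0.00610). Dnajb6 (chr5:29735688-29818134), a suppressor of protein aggregation and the called gene whose HSE is printed above, had 69.5, 67.9 and 72.9 CPM in the controls and 104, 99.3 and 126 CPM in cachexia, a rise of 0.65 ± 0.133 (adjusted p = 0.0170). In all 3 genes, and in Dnaja1, no control mouse overlapped a cachectic mouse. Dnaja1, Dnajc7 and Dnajb6 overlap other genes on the opposite strand, among them Smu1 for Dnaja1 and Cnp and Nkiras2 for Dnajc7, and since the strand setting of the counting is not given in the sources used here, reads of those genes cannot be told apart where they overlap. Dnajb2 overlaps none.

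**Figure D4:**
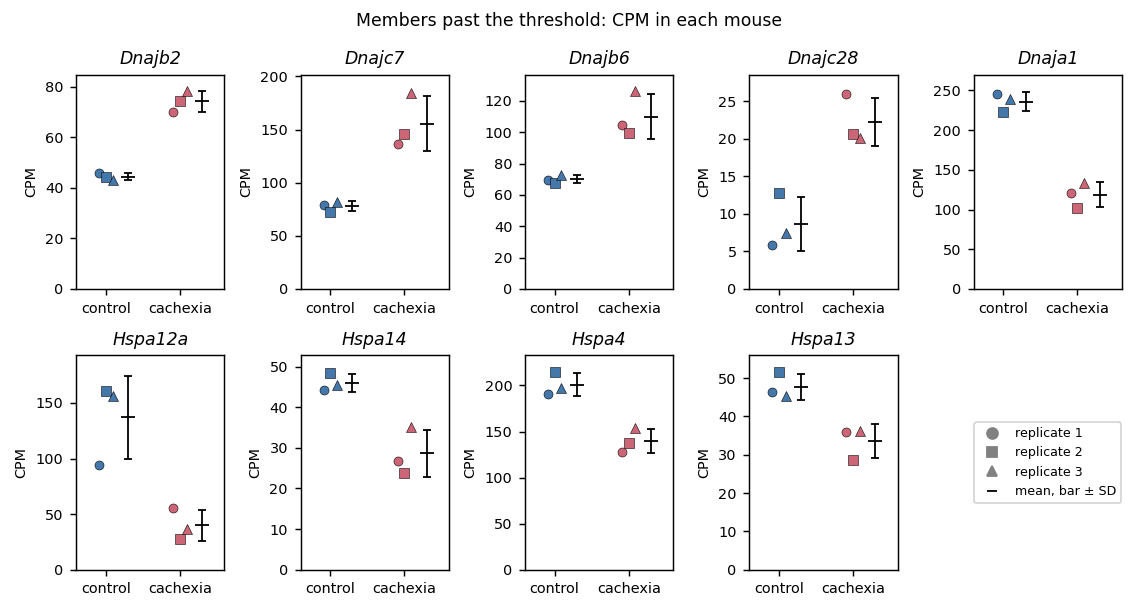
CPM in each mouse for the 4 members called higher (Dnajb2, Dnajc7, Dnajb6, Dnajc28) and the 5 called lower (Dnaja1, Hspa12a, Hspa14, Hspa4, Hspa13), with points for the 3 mice of each group and the mean ± SD beside them. In each of the 9 genes all 3 cachectic mice lie on one side of the 3 controls.

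Of the 9 HSP70 genes tested, over all locations, 2 were called lower (Hspa14 and Hspa13) and 0 higher, with 4 positive and 5 negative changes. Of the 3 HSP110 genes, 1 was called lower and 0 higher. Over all genes tested, 9% were called higher and 8.63% lower, and so few calls do not set these classes apart. Hspa14 (chr2:3488850-3512814), the HSP70 of the ribosome-associated complex that meets nascent chains, had 44.2, 48.5 and 45.5 CPM in the controls and 26.8, 23.9 and 35.1 CPM in cachexia. It fell by 0.69 ± 0.163 on the log2 scale (edgeR adjusted p = 0.0267), without overlap between the groups. Its J protein partner in that complex, Dnajc2, had 30.2, 30.3 and 31.6 CPM in the controls and 31.4, 40.4 and 41.9 CPM in cachexia, a change of 0.30 ± 0.144 that did not pass (adjusted p = 0.185). The deposited row of Hspa14 overlaps Gm45902 on the same strand, so its count is uncertain.

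The 3 HSP110 genes, whose proteins exchange nucleotide on HSP70, all had negative changes. Hspa4 (chr11:53259814-53300457) had 191, 215 and 197 CPM in the controls and 128, 138 and 154 CPM in cachexia, and fell by 0.52 ± 0.135 (adjusted p = 0.0345). Hspa4l had 36.05, 48.9 and 37.97 CPM in the controls and 25.1, 29.8 and 33.96 CPM in cachexia, a change of -0.47 ± 0.172 without overlap between the groups but short of the threshold (adjusted p = 0.0979). Hsph1, the heat-inducible one, had 58.7, 58.1 and 44.02 CPM in the controls and 32.2, 43.7 and 52.1 CPM in cachexia, with overlapping groups and a change of -0.33 ± 0.201 (adjusted p = 0.282).

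Of the 7 small heat shock proteins in the list, 5 were tested and none passed. Hspb1 had 125, 111 and 93.7 CPM in the controls and 118, 224 and 246 CPM in cachexia. Replicates 2 and 3 of cachexia lay well above the controls and replicate 1 lay among them, with a change of 0.83 ± 0.272 (edgeR adjusted p = 0.0719). It was called higher with DESeq2 (adjusted p = 0.0198), with no filter on low counts, and without cachexia replicate 1, where the change was 1.10. Hspb8, which works with Bag3 in selective autophagy, had 131, 183 and 146 CPM in the controls and 93.6, 101 and 134 CPM in cachexia, a change of -0.49 ± 0.189 (adjusted p = 0.114). Hspb7, a small heat shock protein of muscle, had 25.2, 7.21 and 16.6 CPM in the controls and 4.25, 8.83 and 53.9 CPM in cachexia, so that cachexia replicate 3 was again the highest mouse. A list of 8 skeletal muscle genes, 3 of them tested, none called and 1 at 0 in every mouse, was also highest there, summing to 24.8, 37.5 and 41.1 CPM in the controls and 7.75, 8.34 and 59.5 CPM in cachexia. Its part in the Hspb7 value was not tested.

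Most ER chaperones did not pass, and those of the lumen had changes of both signs. Hspa13 (chr16:75745431-75767104), an ER-associated HSP70 without the usual client-binding domain, was the one ER member called. It had 46.5, 51.6 and 45.3 CPM in the controls and 36.1, 28.6 and 36.2 CPM in cachexia, and fell by 0.51 ± 0.139 on the log2 scale (edgeR adjusted p = 0.0419). Its row overlaps Gm15553 on the same strand and Gm22923 on the other, so its count is uncertain. Hspa5, which encodes BiP, the main HSP70 of the ER lumen, had 589.6, 513 and 531 CPM in the controls and 329.8, 309 and 550.2 CPM in cachexia. Cachexia replicates 1 and 2 lay below all controls and replicate 3 lay among them, and the change of -0.46 ± 0.243 did not pass (adjusted p = 0.221). Without cachexia replicate 3 it was -0.77 (adjusted p = 0.0280).

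Hsp90b1, the HSP90 of the ER, had 316, 311 and 301 CPM in the controls and 307, 286 and 451 CPM in cachexia. Its change of 0.17 ± 0.199 (adjusted p = 0.600) became -0.061 without cachexia replicate 3. Dnajc3, which serves BiP in the lumen and, like both genes before it, holds an ERSE, had 205, 212 and 219 CPM in the controls and 167, 187 and 189 CPM in cachexia. All cachectic mice lay below the controls, by a change of -0.23 ± 0.128 that did not pass (adjusted p = 0.241). Dnajb9, a BiP partner induced by ER stress, lay the other way, with 48.8, 66.6 and 62.9 CPM in the controls and 70.1, 76.3 and 69.2 CPM in cachexia and a change of 0.27 ± 0.145 (adjusted p = 0.223). Dnajb11, a J protein that binds unfolded clients of BiP, had 61.8, 52.3 and 55.96 CPM in the controls and 55.4, 51.1 and 70.9 CPM in cachexia, a change of 0.059 ± 0.155 (adjusted p = 0.824) that was -0.089 without cachexia replicate 3. The other 7 ER members had changes between -0.63 (Dnajb14, adjusted p = 0.0584) and 0.24 (Dnajb12, adjusted p = 0.276), and none passed.

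No member assigned by hand to the mitochondrion was called, a result that depends on the assignment. The 4 that form the matrix folding machinery all had positive changes. Hspa9, or mortalin, which pulls proteins into the matrix and folds them there, had 423, 588 and 521 CPM in the controls and 766, 839 and 554 CPM in cachexia. Replicates 1 and 2 of cachexia lay above all controls and replicate 3 did not, with a change of 0.49 ± 0.217 (edgeR adjusted p = 0.151, 95% interval -0.0082 to 0.99). Its J protein Dnaja3 had 65.5, 85.2 and 75.4 CPM in the controls and 104, 106 and 88.9 CPM in cachexia, without overlap. The change was 0.40 ± 0.143 (adjusted p = 0.0912). The row of Dnaja3 overlaps Vasn on the same strand and Coro7 on the other, so its count is uncertain. Hspd1, the chaperonin HSP60, had 248, 369.6 and 289 CPM in the controls and 418, 454 and 322 CPM in cachexia, a change of 0.40 ± 0.207 (adjusted p = 0.219). Its lid Hspe1, which shares the printed upstream region, had 74.7, 96.3 and 82.6 CPM in the controls and 98.2, 101 and 107 CPM in cachexia, a change of 0.27 ± 0.133 (adjusted p = 0.200). The deposited rows of Hspd1 and Hspe1 overlap on opposite strands. Dnajc15 and Dnajc19, J proteins of the import motor at the inner membrane, had changes of -0.33 and -0.27, Dnajc11 and Dnajc30 had 0.092 and -0.025, and the groups overlapped in these 4 genes.

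The widest called differences belonged to members that were not assigned to these locations. Hspa12a (chr19:58795751-58860984), a distant relative of HSP70, had 94.1, 161 and 157 CPM in the controls and 55.2, 27.7 and 37.04 CPM in cachexia. All cachectic mice were below the lowest control, and the fall was 1.78 ± 0.297 on the log2 scale (edgeR adjusted p = 0.00859). Its close relative Hspa12b, known from endothelium, had 74.1, 77.4 and 82.05 CPM in the controls and 111, 56.7 and 95.8 CPM in cachexia, with overlapping groups and a change of 0.17 ± 0.230 (adjusted p = 0.641). Dnajc28 (chr16:91614254-91619026), a J protein of which little is known, had 5.83, 12.8 and 7.47 CPM in the controls and 25.9, 20.7 and 20.1 CPM in cachexia. It rose by 1.36 ± 0.290 (adjusted p = 0.0196), at 117, 223 and 132 raw counts in the controls and 445, 337 and 307 in cachexia, and overlaps Gm15964 on the other strand.

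Several members were highest in control replicate 1, most of them far above every other mouse. Dnaja4 had 65.2, 6.98 and 7.92 CPM in the controls and 11.7, 12.1 and 10.9 CPM in cachexia, and its change of -1.21 ± 0.793 (edgeR adjusted p = 0.320) had a 95% interval of -3.05 to 0.62. Dnajc6, which uncoats clathrin vesicles with HSP70, stood less far apart, with 12.6, 3.66 and 5.83 CPM in the controls and 4.25, 4.35 and 3.21 CPM in cachexia. Of the 7 members with too few counts to be tested, Dnajc22 had 175, 0 and 0 raw counts in the controls and 2, 0 and 1 in cachexia. Hspb9, known from testis, had 46, 10 and 2 counts in the controls and 5, 2 and 3 in cachexia, Dnajc5b had 13, 0 and 0 in the controls and Dnajb8 had 9, 0 and 0, with 0 in every cachectic mouse for both. These counts were high in the same mouse as the epithelial and germ cell lists. Both lists were written after that mouse was seen, so the match is no separate evidence. The part of such cells in these counts was not tested. Dnajb7, Dnajc5g and Hspb3 had at most 15 counts in any mouse. The list of 10 epididymis epithelium genes summed to 0.801 to 1.25 CPM in the controls and 0.466 to 0.920 CPM in cachexia, with none tested and 1 at 0 in every mouse.

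**Figure D5:**
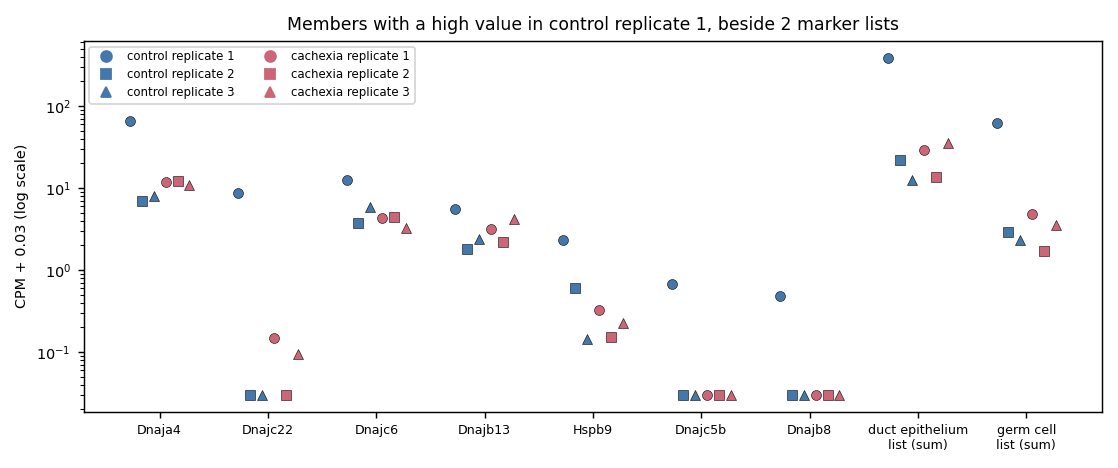
CPM plus 0.03 on a log axis in each mouse for 7 members with a high value in control replicate 1, beside the summed CPM of 2 marker lists (10 duct and ciliated epithelium genes, 12 male germ cell genes). Control replicate 1 is the highest mouse in each column, and the members and both lists were chosen after these values were seen. For Dnajb13 it is little above cachexia replicate 3 (5.43 against 4.19 CPM).

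With control replicate 1 and cachexia replicate 3 left out together, an alternative added after seeing the data, 4 members were called higher and 7 lower, and 8 of the 9 calls with all mice were among these 11. The call of Hspa13 was lost, and Dnajb14, Hspa5 and Hspb8 were called lower. Dnaja1, Dnajb2, Dnajc7 and Hspa12a were called in each of 17 other settings (a fold threshold apart), Dnajb6 and Dnajc28 in 15, Hspa14 in 12, Hspa4 in 9 and Hspa13 in 6. Leaving out single mice moved the count of 5 called lower to 3 without control replicate 1, to 2 without control replicate 2, control replicate 3, cachexia replicate 1 or cachexia replicate 2, and to 6 without cachexia replicate 3. The count of 4 called higher fell to 2 without control replicate 3.

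The rest of the chaperone network was read from a list of 78 partner genes, 76 of them tested, of which 5 were called higher (6.58%, against 9% of all genes tested) and 2 lower (2.63%, against 8.63%), with a median change of 0.081. Hsf1, the main factor of the heat shock response, had 30.8, 33.8 and 30.2 CPM in the controls and 40.4, 35.5 and 55.2 CPM in cachexia. Each cachectic mouse was above each control, by a change of 0.47 ± 0.178 that did not pass (edgeR adjusted p = 0.110). Hsf2 changed by -0.29 ± 0.160 (adjusted p = 0.241) and Hsf4 by 0.88 ± 0.394 (adjusted p = 0.157), neither past the threshold, and Hsf5 had too few counts to be tested. Overlap of the partner genes with other genes was not looked up, apart from that of Cryab with Hspb2, so their counts carry the same uncertainty.

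Of 24 co-chaperones of HSP70 and HSP90, 1 was called higher and none lower. It was Unc45b, an HSP90 partner that folds myosin, with 23.8, 24.1 and 22.1 CPM in the controls and 43.8, 39.2 and 43.4 CPM in cachexia and a rise of 0.85 ± 0.121 (adjusted p = 0.00500). Of 14 genes of the cytosolic chaperonin TRiC and of prefoldin, which hands clients to it, 2 were called higher and none lower. The prefoldin subunit gene Pfdn2 had 17.8, 14.1 and 13.6 CPM in the controls and 33.3, 23.9 and 33.7 CPM in cachexia, a rise of 0.99 ± 0.189 (adjusted p = 0.0130). The TRiC subunit gene Cct4 had 125, 151 and 131 CPM in the controls and 190.1, 193 and 207 CPM in cachexia, a rise of 0.53 ± 0.133 (adjusted p = 0.0311).

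Among 10 mitochondrial partners, 2 were called higher and none lower. Grpel1, the nucleotide exchange factor of mortalin, had 59.4, 62.7 and 60.5 CPM in the controls and 111, 93.5 and 84.5 CPM in cachexia, a rise of 0.66 ± 0.135 (adjusted p = 0.0166). Hscb, the J protein with which mortalin hands over iron-sulfur clusters, had 7.18, 7.61 and 6.11 CPM in the controls and 13.2, 13.2 and 12.6 CPM in cachexia, a rise of 0.89 ± 0.181 (adjusted p = 0.0161). Both genes showed no overlap between the groups. Neither the pair of J proteins outside the name rule nor the heat shock factors held a call.

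Of 22 further genes of ER folding and the unfolded protein response, none was called higher and 1 was called lower. This was Ddit3, which encodes the stress factor CHOP, with 22.7, 19.5 and 21.8 CPM in the controls and 13.4, 12.8 and 14.1 CPM in cachexia and a fall of 0.67 ± 0.141 (edgeR adjusted p = 0.0187). Cryab, the small heat shock protein alpha-B-crystallin, had the largest called change of the partners. It had 93.7, 92.4 and 93.2 CPM in the controls and 23.2, 14.1 and 36.3 CPM in cachexia, and fell by 1.93 ± 0.301 (adjusted p = 0.00685). Hspb2, its neighbor, whose row overlaps that of Cryab, had 0.997, 1.43 and 1.13 CPM in the controls and 0.990, 0.368 and 0.196 CPM in cachexia, a change of -1.17 ± 0.583 at low counts (adjusted p = 0.200). Its lens relative Cryaa had too few counts to be tested.

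Cell type markers were read beside all genes tested, of which 9% were called higher and 8.63% lower. The smooth muscle, endothelial and neutrophil sums separated the groups, while the adipocyte and macrophage sums overlapped. Of 10 smooth muscle and pericyte markers, 2 were called lower and none higher, with sums of 1189 to 1548 CPM in the controls and 557 to 888 CPM in cachexia. Of 10 endothelial markers, 5 were called higher and none lower, with sums of 1738 to 1851 CPM and 2669 to 3888 CPM. Of 9 neutrophil markers tested, 8 were called higher, with sums of 32.01 to 49.1 CPM and 254 to 753 CPM, highest in cachexia replicate 3. Of 12 adipocyte markers, 2 were called higher and 1 lower, with sums of 43603 to 62298 CPM and 33146 to 60067 CPM, so the labelled tissue was plain in all 6 mice. Of 10 macrophage markers, 2 were called higher and 1 lower, with sums of 1569 to 1975 CPM and 1321 to 2052 CPM. The part of such cells in the changes of Cryab, Hspa12a, Unc45b and the other chaperone genes was not tested.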

How the data were processed

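RNA-seq of eWAT from 3 cachectic and 3 control mice was analyzed, grouped by their labels. Raw counts per gene were deposited, which the authors made with featureCounts from read pairs that passed their quality filters and were aligned with Hisat2. The submitters' processing notes list featureCounts 1.5.0-p3, DESeq2 1.16.1 and mm9. The gene coordinates in the deposited files are nevertheless those of GRCm38: 99.9% of the identifiers are in GENCODE M21 and 98.3% of these have the same coordinates, which are printed here. The deposited FPKM values are the authors' counts per gene length and sequenced fragments, and carry a further constant factor in each sample. A deposited table of the authors' own fold changes and p-values was not used.

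The quasi-likelihood test of edgeR 4.0.16 (R 4.3.3) was fitted to the deposited counts without covariates, after filterByExpr and TMM, and p-values were adjusted by Benjamini-Hochberg over the 16003 genes left, with a threshold of 0.05. The total counts of 14928766 to 18855546 limit the precision for genes at low counts. Alternatives were RLE factors, library totals, no filter, at least 10 counts in every sample, DESeq2 1.42.0, limma-voom 3.58.1, limma on log2 FPKM (pseudocount 1, or 0.1), only protein-coding rows, a replicate block, a log2 fold change of at least 1, each mouse left out, and both libraries that stood apart left out (added after seeing the data). Scripts were tested on simulated data. The members and lists were chosen with earlier results of these data known. Members past the threshold (up to 15 per direction), 11 tied to the heat shock response (Hspa8 and Hsp90ab1 included), 6 ER and 2 mitochondrial members, the 5 with the highest mean FPKM, the heat shock factors and called partners were named by rule. Locations were assigned by hand from textbook knowledge. Protein sequences were not analyzed here. Whether the p-values measure more than the spread between these samples depends on the mice being separate animals, as the labels and methods have them.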

Additional observations from a re-analysis of the deposited data

How the results depend on the processing

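All calls rest on 3 mice per group. Members called higher numbered 4, and 2 to 4 with single mice left out, and members called lower numbered 5, and 2 to 6. Those called lower numbered 3 with library totals, with no filter and with the replicate block. Requiring a log2 fold change of at least 1 left 1 member higher and 1 lower, and 0 partner genes higher and 1 lower. Partner genes called higher numbered 5, 9 with DESeq2 and 1 to 6 with single mice left out (2 without control replicate 2 and 1 without control replicate 3), and those called lower 2, and 1 to 3 (1 without cachexia replicate 2, control replicate 2 or control replicate 3). Calls over all genes numbered 2821, with 3884 by DESeq2, 1881 with the replicate block, 1312 without control replicate 2 and 828 without control replicate 3. The numbers of the replicates do not pair the mice (correlations of their deviations within 0.03 of 0), so the block shares only a number. Changes that turned sign belong to genes with no call. With control replicate 1 and cachexia replicate 3 left out together, they were -0.021 for Dnajb11, -0.045 for Hsp90b1 and -0.38 for Hspa1b. With single mice left out, Dnajb11 ranged over -0.089 to 0.16, Hsp90b1 over -0.061 to 0.29, Hspa1b over -0.25 to 1.24 and Hspa8 over -0.14 to 0.043, and with library totals Hspa8 was 0.0085. The cause was not tested. Genes at a few CPM, such as Hspb2, Hspa1l and Dnajb3, have 95% intervals that reach beyond 1 on the log2 scale.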
